A study of Arabidopsis thaliana with 24 samples.

Results

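A set of 79 loci was lower at 20 than at 15 days after pollination (DAP) in both polysomal and total RNA of developing Arabidopsis thaliana seeds. The loci were taken from array levels on the log2 scale, where a difference of 1 is a 2-fold change. A locus had to have a mean of at least 6 in total RNA at 15 DAP, a mean at least 1 lower at 20 than at 15 DAP in polysomal and in total RNA, and a rise of less than 1 in total RNA between 12 and 15 DAP. Mitochondrial and plastid loci were left out by their names. The 79 loci are drawn from 27827 measured, of which 27720 lie on nuclear chromosomes. The members were thus chosen by their levels at these stages. Since the levels at 12, 15 and 20 DAP in total RNA and at 15 and 20 DAP in polysomal RNA chose the set, the differences between those groups are described without a test.

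The seeds came from the accession Col-0 with no treatment named, and each replicate pooled several plants of a blocked planting. Polysomal RNA, the transcripts that carry several ribosomes at once, and total RNA were each measured at 12, 15, 18 and 20 DAP. The 8 groups held 3 arrays each, 24 in all. A whole seed holds embryo, endosperm and seed coat together, so that fewer cells of a type and less RNA per cell cannot be told apart.

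Through these stages a seed imports sucrose and amino acids from the mother plant and turns them into oil and storage protein. Fatty acids are built on acyl carrier protein in plastids, then desaturated, elongated and joined to glycerol in the endoplasmic reticulum. Filling ends before the seed dries. Polysomal RNA shows which transcripts were with ribosomes. As the arrays are normalized, a polysomal level is a level among the other polysomal transcripts.

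The 12 DAP groups differ from the rest of the series in quality. Levels on their 6 arrays had an SD over loci of 1.39 to 1.71, against 2.13 to 2.43 later, and their replicates correlated across loci at 0.739 to 0.851, against 0.955 to 0.990 later. The median SD between replicates was 0.567 in polysomal and 0.532 in total RNA at 12 DAP, against 0.175 to 0.301 in later groups. The part of this in the comparisons with 12 DAP was not tested. Storage protein transcripts, which mark maturing seed, were abundant, with a median level of 11.87 over 12 listed genes in total RNA at 15 DAP, where the median of all loci was 3.92. At that stage 9 listed endosperm markers had a median of 2.25 and 6 listed silique valve markers, of a fruit tissue, one of 3.01.

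The set holds 72 protein-coding loci, 4 long non-coding RNAs, 2 transfer RNAs and 1 transcribed pseudogene. Of the 79, 42 carry a gene symbol in the RefSeq table and 37 are known here by locus only. They lie on all 5 chromosomes, with 15, 22, 12, 16 and 14 loci on chromosomes 1 to 5. The median difference between 20 and 15 DAP was -1.74 in polysomal RNA, ranging over members between -4.88 and -1.01. In total RNA it was -1.76, ranging between -6.42 and -1.02. Over all loci the medians were -0.01 and 0.00. A difference of -1 or below was found in 2.46% of all loci in polysomal RNA, in 4.24% in total RNA and in 1.4% in both, and the set was cut from these. At 20 DAP 27 members were at least 4-fold lower than at 15 DAP in both fractions, and 13 were at least 8-fold lower.

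**Figure D1:**
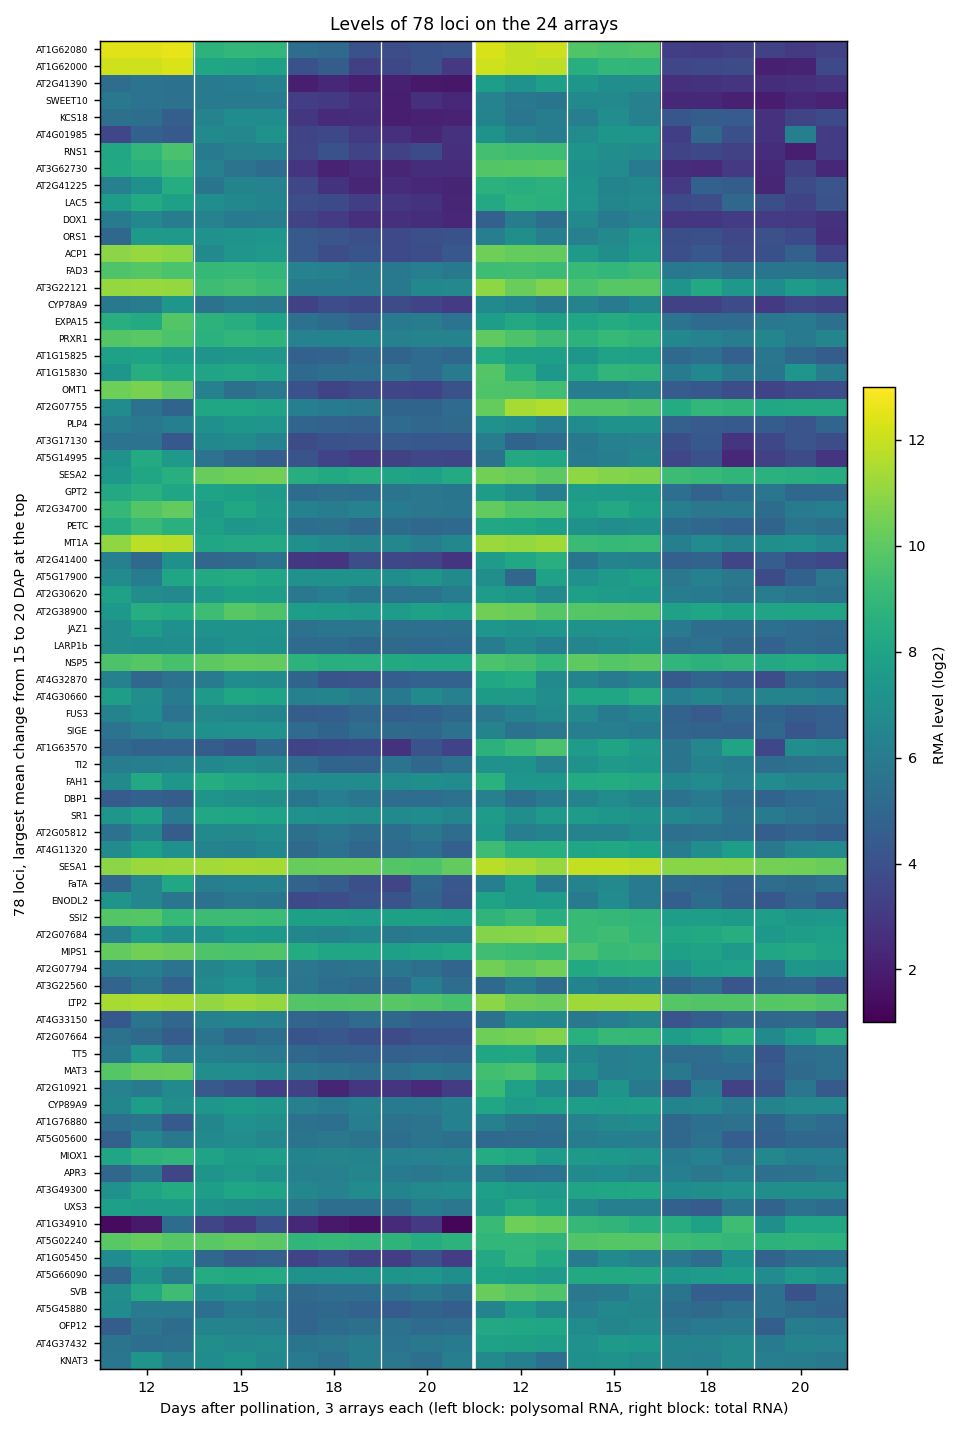
Heat map of the RMA log2 level of each of 78 of the 79 loci (rows, largest mean difference between 20 and 15 DAP at the top) on each of the 24 arrays (columns), with the 12 polysomal arrays left and the 12 total RNA arrays right, ordered by stage. In both blocks the arrays of 18 and 20 DAP are darker (lower) than those of 15 DAP, while the 12 DAP arrays vary between loci, above or below those of 15 DAP.

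Of the 16 gene lists examined, oil synthesis, which is also the longest, gave the most members by count. Of 32 listed genes of fatty acid and triacylglycerol synthesis 5 are in the set: ACP1, SSI2, FaTA, FAD3 and KCS18. All 5 were lower in polysomal RNA at 18 than at 12 DAP by limma, with p-values adjusted over all 27827 loci, of which 41.6% were called lower. Of the whole list 22 genes were lower and 6 higher in that comparison. The median differences between 20 and 15 DAP over the list were -0.34 in polysomal and -0.12 in total RNA. Of the 32 listed genes 9 were at or below the limit of -1 in polysomal and 6 in total RNA, against 2.46% and 4.24% of all loci.

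ACP1 (AT3G05020) encodes a plastid acyl carrier protein. Its polysomal levels were 10.93, 11.14 and 10.97 at 12 DAP, 6.76, 7.24 and 7.45 at 15 DAP, 4.36, 3.83 and 4.12 at 18 DAP, and 3.67, 3.82 and 4.27 at 20 DAP. Total RNA gave 10.33, 10.16 and 10.13 at 12 DAP, 7.45, 6.99 and 7.50 at 15 DAP, 3.92, 4.27 and 3.72 at 18 DAP, and 3.91, 4.67 and 3.41 at 20 DAP. The level was thus lower at each stage up to 18 DAP in both fractions, with no overlap between the arrays of 12, 15 and 18 DAP, and the arrays of 18 and 20 DAP overlapped. ACP1 was 9.37-fold lower at 20 than at 15 DAP in polysomal RNA and 9.96-fold lower in total RNA. At 18 against 12 DAP its polysomal level fell by 6.91 ± 0.28 (SE, n = 3 arrays per group, limma adjusted p = 5.09e-06).

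FAD3 (AT2G29980), the desaturase that makes linolenic acid in the endoplasmic reticulum, kept its level longer. It had polysomal levels of 9.71, 9.82 and 9.60 at 12 DAP, 8.97, 9.04 and 8.92 at 15 DAP, 6.34, 6.25 and 5.87 at 18 DAP, and 5.84, 6.11 and 5.87 at 20 DAP. Levels in total RNA were 9.27, 9.32 and 9.17 at 12 DAP, 9.09, 8.93 and 9.20 at 15 DAP, 5.86, 5.88 and 5.41 at 18 DAP, and 5.67, 5.67 and 5.42 at 20 DAP. The 12 DAP arrays were less than 1 above those of 15 DAP, whereas every array of 18 and 20 DAP lay below them. The difference between 20 and 15 DAP was -3.04 ± 0.17 in polysomal and -3.49 ± 0.17 in total RNA. Polysomal FAD3 was lower at 18 than at 12 DAP, with a difference of -3.56 ± 0.28 (limma adjusted p = 3.64e-05).

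KCS18 (AT4G34520), known as FAE1, elongates fatty acids to the very long chains of Arabidopsis seed oil. On polysomes it read 5.43, 5.32 and 4.65 at 12 DAP, 6.38, 6.82 and 6.82 at 15 DAP, 2.93, 2.43 and 2.58 at 18 DAP, and 2.0, 2.1 and 2.13 at 20 DAP. Total RNA held 6.41, 5.71 and 6.11 at 12 DAP, 6.11, 6.91 and 6.27 at 15 DAP, 4.22, 4.54 and 4.44 at 18 DAP, and 2.72, 3.47 and 3.68 at 20 DAP. Polysomal KCS18 peaked at 15 DAP with all 3 arrays above those of the other stages, and both fractions were lower again at 20 than at 18 DAP without overlap. Here the fractions parted: at 20 DAP the level was 24.3-fold below that of 15 DAP in polysomal RNA and 8.78-fold below it in total RNA. At 18 DAP the polysomal level was below the total level, with a difference of -1.75 ± 0.25 (limma adjusted p = 0.000258), while at 15 DAP it was 0.25 above it.

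SSI2 (AT2G43710), the plastid desaturase that makes oleic acid, and FaTA (AT3G25110), a thioesterase that frees oleic acid from acyl carrier protein, had smaller differences. SSI2 had 9.77, 9.82 and 9.04 at 12 DAP, 9.23, 9.24 and 9.19 at 15 DAP, 7.81, 7.82 and 7.73 at 18 DAP, and 7.82, 7.83 and 7.74 at 20 DAP in polysomal RNA. In total RNA its levels were 8.85, 9.17 and 8.57 at 12 DAP, 9.14, 9.01 and 8.89 at 15 DAP, 7.68, 7.68 and 7.56 at 18 DAP, and 7.69, 7.35 and 7.42 at 20 DAP. Arrays of 18 and 20 DAP overlapped in both fractions and lay below all arrays of 15 DAP. The difference between 20 and 15 DAP was -1.42 in polysomal and -1.53 in total RNA. FaTA lay just inside the limit in total RNA, at -1.02, with -1.96 in polysomal RNA. Its polysomal arrays of 12 DAP spread widely, at 4.95, 6.55 and 8.20, and its call at 18 against 12 DAP (-2.15 ± 0.70, limma adjusted p = 0.0216) was lost without the second (adjusted p = 0.0626) or the third array of 12 DAP (adjusted p = 0.0533) or the third of 18 DAP (adjusted p = 0.0712).

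**Figure D2:**
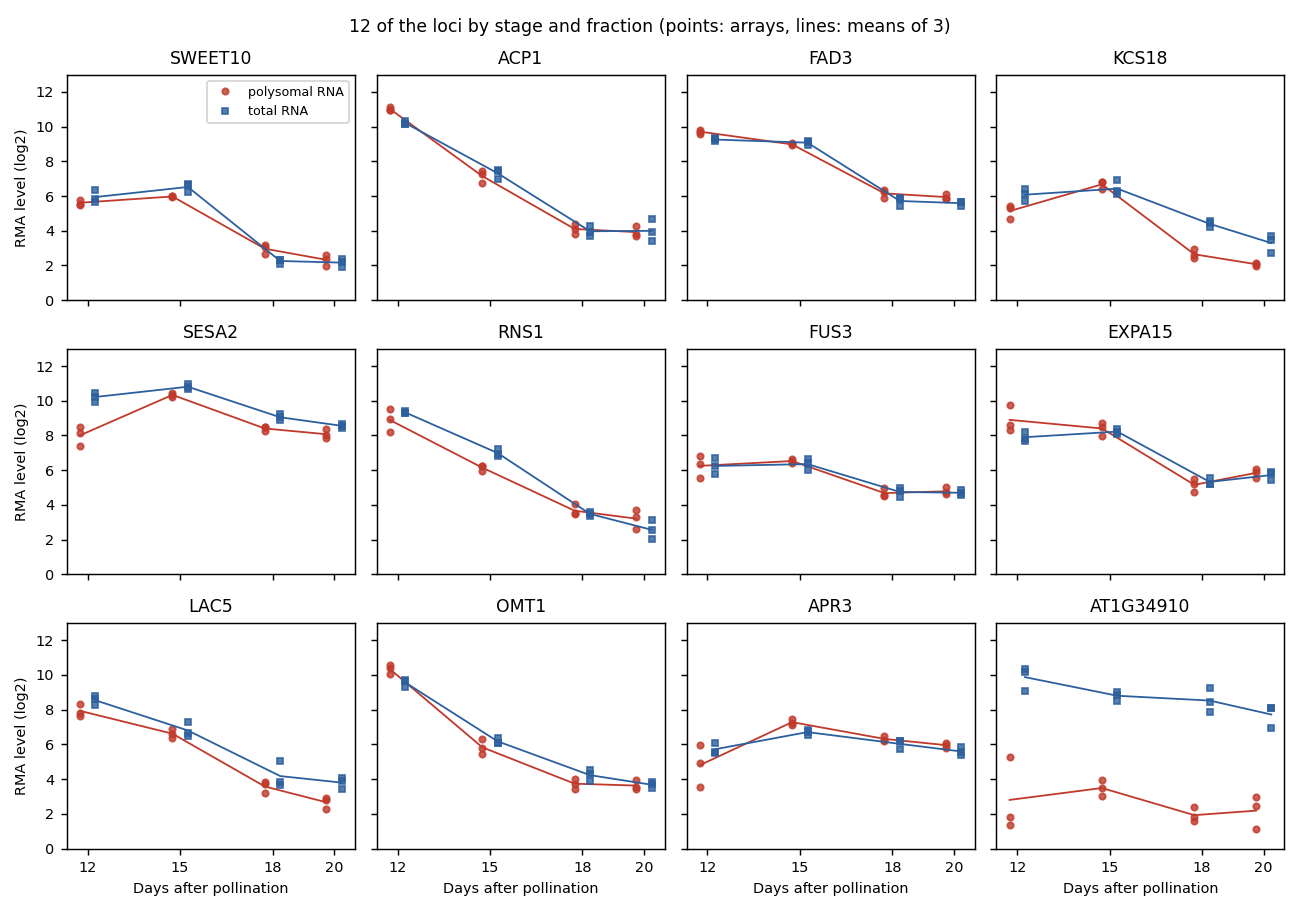
RMA log2 level (vertical axis) against days after pollination for 12 of the loci, with points for the 3 arrays of a stage and lines through their means, polysomal RNA in red circles and total RNA in blue squares. In total RNA SWEET10, FAD3 and EXPA15 differ by less than 1 between 12 and 15 DAP and are low at 18 DAP, ACP1, RNS1 and OMT1 are already lower at 15 than at 12 DAP, and AT1G34910 stays far lower in polysomal than in total RNA.

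Sugar supply is represented by 2 genes. SWEET10 (AT5G50790), a sugar carrier of the SWEET family, had polysomal levels of 5.79, 5.55 and 5.51 at 12 DAP, 5.99, 6.01 and 5.93 at 15 DAP, 3.18, 3.05 and 2.67 at 18 DAP, and 1.99, 2.63 and 2.35 at 20 DAP. In total RNA they were 6.34, 5.81 and 5.67 at 12 DAP, 6.68, 6.65 and 6.24 at 15 DAP, 2.34, 2.33 and 2.11 at 18 DAP, and 1.90, 2.40 and 2.19 at 20 DAP. The arrays of 18 and 20 DAP lay at least 2 below those of 12 and 15 DAP in either fraction. The level was 12.5-fold lower at 20 than at 15 DAP in polysomal RNA and 20.5-fold lower in total RNA, which ranks SWEET10 first among the members with a symbol. At 20 DAP its means were 2.33 and 2.16, below the medians of all loci, so these folds are uncertain without detection calls. Of the 8 listed sugar carriers it is the only member. Yet 3 of the 8 were lower by at least 1 at 20 than at 15 DAP in each fraction. SWEET15 and SUC2 were among these but under the level minimum. In polysomal RNA 5 of the 8 were lower and 1 higher at 18 than at 12 DAP, against 41.6% lower and 31.3% higher over all loci. SWEET10 differed by -2.65 ± 0.29 there (limma adjusted p = 0.000125).

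GPT2 (AT1G61800) carries glucose 6-phosphate into plastids. Polysomal arrays read 8.24, 8.62 and 8.08 at 12 DAP, 7.96, 7.80 and 7.49 at 15 DAP, 5.26, 5.43 and 5.34 at 18 DAP, and 5.62, 5.81 and 5.67 at 20 DAP. Total RNA arrays read 7.64, 7.03 and 6.20 at 12 DAP, 7.64, 7.43 and 7.52 at 15 DAP, 5.38, 4.84 and 5.21 at 18 DAP, and 5.73, 5.05 and 5.06 at 20 DAP. On polysomes every array of 20 DAP was above every array of 18 DAP, so the lowest level came at 18 DAP. GPT2 was lower at 18 than at 12 DAP in polysomal RNA, with a difference of -2.97 ± 0.28 (limma adjusted p = 7.55e-05).

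Storage proteins gave 2 members of 12 listed, the 2S albumins SESA1 (AT4G27140) and SESA2 (AT4G27150), which are neighbours on chromosome 4. SESA2 had polysomal levels of 7.41, 8.12 and 8.50 at 12 DAP, 10.23, 10.35 and 10.44 at 15 DAP, 8.46, 8.28 and 8.47 at 18 DAP, and 8.01, 7.86 and 8.36 at 20 DAP. Total RNA showed 10.47, 10.24 and 9.95 at 12 DAP, 10.95, 10.79 and 10.69 at 15 DAP, 9.23, 9.05 and 8.87 at 18 DAP, and 8.68, 8.56 and 8.43 at 20 DAP. The 15 DAP arrays were the highest of each fraction, and those of 20 DAP were 4.81-fold lower in polysomal and 4.77-fold lower in total RNA. SESA1, among the most abundant members, had mean polysomal levels of 11.12 ± 0.19, 11.38 ± 0.04, 10.24 ± 0.04 and 9.86 ± 0.22 (SD, n = 3) at 12, 15, 18 and 20 DAP. In total RNA its means were 11.46 ± 0.31, 11.87 ± 0.07, 10.85 ± 0.03 and 10.40 ± 0.11, and at 20 DAP it was 2.88-fold below 15 DAP in polysomal and 2.77-fold below it in total RNA.

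At 18 DAP both albumins were lower in polysomal than in total RNA, with differences of -0.61 ± 0.13 for SESA1 (limma adjusted p = 0.00466) and -0.65 ± 0.16 for SESA2 (limma adjusted p = 0.00849), with no overlap between the fractions. Of all loci 11.3% were called lower on polysomes there. SESA1 lost this call under cyclic loess scaling (adjusted p = 0.12) and SESA2 under median centring (adjusted p = 0.0626). With all 24 arrays in one fit both lost it (adjusted p = 0.0782 for SESA1 and 0.117 for SESA2). Over the list 5 of 12 storage protein genes were lower and 0 higher on polysomes at that stage. The list's median difference between 20 and 15 DAP was -0.35 in polysomal and -0.33 in total RNA.

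Genes of phenolic compounds and of the cell wall were 7. LAC5 (AT2G40370) belongs to the laccases, which oxidise phenolic compounds in the wall. Its polysomal arrays gave 7.64, 8.34 and 7.82 at 12 DAP, 6.87, 6.59 and 6.39 at 15 DAP, 3.83, 3.69 and 3.21 at 18 DAP, and 2.91, 2.78 and 2.30 at 20 DAP. Its total RNA arrays gave 8.25, 8.77 and 8.60 at 12 DAP, 7.27, 6.49 and 6.65 at 15 DAP, 3.65, 3.84 and 5.03 at 18 DAP, and 3.88, 3.44 and 4.07 at 20 DAP. Levels were lower at each later stage on polysomes, where the arrays of no consecutive stages overlapped, and the third total RNA array of 18 DAP, at 5.03, stood above the others of its group. OMT1 (AT5G54160), a methyltransferase of lignin and flavonoid synthesis, had polysomal levels of 10.37, 10.58 and 10.06 at 12 DAP, 6.29, 5.42 and 5.79 at 15 DAP, 4.03, 3.44 and 3.74 at 18 DAP, and 3.53, 3.40 and 3.96 at 20 DAP. Its total RNA had 9.69, 9.67 and 9.33 at 12 DAP, 6.10, 6.07 and 6.36 at 15 DAP, 4.51, 4.29 and 3.89 at 18 DAP, and 3.46, 3.72 and 3.84 at 20 DAP. Most of its course was over by 15 DAP, and polysomal OMT1 fell by 6.60 ± 0.30 at 18 against 12 DAP (limma adjusted p = 7.13e-06).

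EXPA15 (AT2G03090), an expansin, which loosens cell walls, had polysomal levels of 8.59, 8.34 and 9.78 at 12 DAP, 8.74, 8.50 and 7.98 at 15 DAP, 5.49, 5.23 and 4.75 at 18 DAP, and 5.91, 6.08 and 5.56 at 20 DAP. Total RNA of EXPA15 gave 7.68, 8.23 and 7.80 at 12 DAP, 8.12, 8.38 and 8.18 at 15 DAP, 5.57, 5.19 and 5.22 at 18 DAP, and 5.82, 5.92 and 5.43 at 20 DAP. All 6 arrays of 18 DAP lay below all 6 of 15 DAP, and on polysomes those of 20 DAP were all above those of 18 DAP. It is the only member among 14 listed expansins and related enzymes, of which 12 were lower and 0 higher in polysomal RNA at 18 than at 12 DAP. Between 15 and 20 DAP 3 of the 14 fell by at least 1 in polysomal and 4 in total RNA. The peroxidase PRXR1 (AT4G21960), the ferulate hydroxylase FAH1 (AT4G36220), the chalcone isomerase TT5 (AT3G55120) and the UDP-xylose synthase UXS3 (AT5G59290), of which FAH1 and UXS3 were picked after their values were seen, complete the group. Over the 7 genes the difference between 20 and 15 DAP ranged between -3.95 and -1.24 in polysomal RNA and between -3.01 and -1.17 in total RNA. In polysomal RNA 6 of these 7, a group put together with the values known, were lower at 18 than at 12 DAP, as were 41.6% of all loci, and FAH1 did not pass (-0.64 ± 0.40, limma adjusted p = 0.166). TT5 is the only member among 18 listed seed coat flavonoid genes, of which 17 were lower and 0 higher. Between 15 and 20 DAP 3 of the 18 fell by at least 1 in each fraction. Among these is TT10 (-2.42 in polysomal and -3.01 in total RNA), which was under the level minimum.

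Turnover and defence gave further members. RNS1 (AT2G02990), a secreted ribonuclease linked to ageing and phosphate shortage, had polysomal levels of 8.19, 8.93 and 9.55 at 12 DAP, 5.95, 6.24 and 6.26 at 15 DAP, 3.51, 4.03 and 3.45 at 18 DAP, and 3.30, 3.68 and 2.64 at 20 DAP. The total RNA arrays of RNS1 read 9.40, 9.31 and 9.28 at 12 DAP, 7.22, 6.94 and 6.80 at 15 DAP, 3.47, 3.62 and 3.36 at 18 DAP, and 2.56, 2.03 and 3.11 at 20 DAP. No arrays of 12, 15 and 18 DAP overlapped in either fraction, and total RNA was lower again at 20 DAP. At 20 DAP it was 7.68-fold lower than at 15 DAP on polysomes and 21.4-fold lower in total RNA. These folds are uncertain, since its means at 20 DAP, 3.21 and 2.57, were below the medians of all loci. Polysomal RNS1 fell by 5.22 ± 0.39 at 18 against 12 DAP (limma adjusted p = 2.97e-05). It is the only member among 19 listed genes of developmental cell death and nutrient recycling. Their median level in total RNA at 15 DAP was 4.03, under the minimum of 6. In each fraction 8 of the 19 were lower by at least 1 at 20 than at 15 DAP. Over all loci 2.46% were in polysomal and 4.24% in total RNA. Of the 19 genes 15 were lower and 1 higher in polysomal RNA at 18 than at 12 DAP, against 41.6% lower and 31.3% higher over all loci. DOX1 (AT3G01420), an alpha-dioxygenase of fatty acids, had 5.98, 6.62 and 6.09 at 12 DAP, 6.33, 5.95 and 6.10 at 15 DAP, 3.48, 3.16 and 2.66 at 18 DAP, and 2.64, 2.59 and 2.35 at 20 DAP in polysomal RNA. Its total RNA levels were 4.70, 6.06 and 5.32 at 12 DAP, 6.69, 5.88 and 6.31 at 15 DAP, 2.88, 2.93 and 3.16 at 18 DAP, and 3.14, 3.02 and 2.76 at 20 DAP. Its arrays of 12 and 15 DAP overlapped in polysomal RNA, and those of 18 and 20 DAP lay between 2.35 and 3.48 in either fraction. It was 12.1-fold lower at 20 than at 15 DAP on polysomes and 9.98-fold lower in total RNA.

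Regulators described here, a group put together with the values known that leaves out the phosphatase DBP1, are 6: the maturation factor FUS3 (AT3G26790), the homeodomain factor KNAT3 (AT5G25220), the jasmonate repressor JAZ1 (AT1G19180), the plastid sigma factor SIGE (AT5G24120), the kinase SR1 (AT5G01820), also called CIPK14, and the ovate family protein OFP12 (AT1G05420). FUS3, a B3 factor that switches on reserve genes, had polysomal levels of 6.37, 6.82 and 5.55 at 12 DAP, 6.64, 6.55 and 6.40 at 15 DAP, 4.53, 4.57 and 4.95 at 18 DAP, and 4.62, 4.73 and 5.01 at 20 DAP. In total RNA it had 5.78, 6.26 and 6.70 at 12 DAP, 6.65, 6.01 and 6.40 at 15 DAP, 4.80, 4.45 and 4.99 at 18 DAP, and 4.88, 4.55 and 4.67 at 20 DAP. The step between 15 and 18 DAP is the one that separates all arrays in both fractions. Polysomal FUS3 was lower at 18 than at 12 DAP, with a difference of -1.57 ± 0.37 (limma adjusted p = 0.00508). It is the only member among 16 listed maturation factors. Between 15 and 20 DAP 4 of the 16 fell by at least 1 in polysomal and 3 in total RNA. Of the 16 factors 7 were lower and 5 higher in polysomal RNA at 18 than at 12 DAP, against 41.6% lower and 31.3% higher over all loci. JAZ1 had polysomal levels of 6.90, 7.59 and 7.05 at 12 DAP, 7.18, 7.18 and 7.14 at 15 DAP, 5.50, 5.70 and 5.73 at 18 DAP, and 5.45, 5.39 and 5.42 at 20 DAP. Its arrays of 18 DAP all lay below those of 15 DAP, and its arrays of 20 DAP all below those of 18 DAP. Over the 6 regulators the difference between 20 and 15 DAP ranged between -1.86 and -1.01 in polysomal and between -1.87 and -1.03 in total RNA, smaller than for SWEET10, ACP1 or KCS18. KNAT3 did not pass at 18 against 12 DAP (-0.57 ± 0.41, limma adjusted p = 0.227), nor did SR1 and OFP12.

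Further members with a symbol and large differences have varied roles. PRXR1, the peroxidase, had polysomal levels of 9.81, 9.91 and 9.61 at 12 DAP, 8.65, 8.88 and 8.78 at 15 DAP, 6.31, 6.40 and 6.42 at 18 DAP, and 6.24, 6.39 and 6.36 at 20 DAP, and no arrays of 12, 15 and 18 DAP overlapped. CYP78A9 (AT3G61880), a cytochrome P450 that promotes growth of the seed and fruit, had 5.83, 6.02 and 7.36 at 12 DAP, 5.49, 5.96 and 5.77 at 15 DAP, 3.36, 3.82 and 3.61 at 18 DAP, and 3.79, 3.41 and 3.15 at 20 DAP on polysomes. PLP4 (AT4G37050), a patatin-like lipid hydrolase, had 6.12, 5.82 and 6.20 at 12 DAP, 7.03, 7.36 and 7.25 at 15 DAP, 4.92, 4.79 and 4.66 at 18 DAP, and 5.22, 4.96 and 5.17 at 20 DAP. CYP78A9 overlapped between 12 and 15 DAP, whereas PLP4 was higher on every array of 15 DAP than on any of 12 DAP. LARP1b (AT5G66100), a La-related RNA-binding protein, stayed between 6.82 and 7.12 on all 6 polysomal arrays of 12 and 15 DAP and between 5.01 and 5.25 on the 6 of 18 and 20 DAP. All 4 were lower in polysomal RNA at 18 than at 12 DAP, as were 41.6% of all loci. The differences were -3.40 ± 0.27 for PRXR1, -2.81 ± 0.42 for CYP78A9, -1.25 ± 0.28 for PLP4 and -1.73 ± 0.27 for LARP1b (SE, limma adjusted p between 3.64e-05 and 0.00354).

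Metabolism outside oil supplied a few more. MIPS1 (AT4G39800) makes inositol phosphate and MIOX1 (AT1G14520) breaks inositol down, and both were picked after their values were seen, like MAT3 below. MIPS1 had mean polysomal levels of 10.27 ± 0.17, 9.66 ± 0.07, 8.19 ± 0.17 and 7.98 ± 0.22 (SD, n = 3) at 12, 15, 18 and 20 DAP. Its total RNA means were 9.17 ± 0.17, 9.27 ± 0.24, 7.73 ± 0.23 and 8.08 ± 0.16, and every total RNA array of 20 DAP lay above every one of 18 DAP. Polysomal MIPS1 fell by 2.08 ± 0.28 at 18 against 12 DAP, and MIOX1 fell by 2.15 ± 0.31 (limma adjusted p = 0.000322 and 0.000462). MAT3 (AT2G36880), which makes S-adenosylmethionine, and the metallothionein MT1A (AT1G07600) were both lower at 15 than at 12 DAP in total RNA, with differences of -2.77 and -2.07. MT1A had polysomal levels of 11.02, 11.80 and 11.69 at 12 DAP, 8.03, 8.26 and 8.26 at 15 DAP, 7.01, 6.66 and 6.48 at 18 DAP, and 6.55, 6.15 and 6.59 at 20 DAP. Its polysomal level fell by 4.79 ± 0.32 at 18 against 12 DAP (limma adjusted p = 2.13e-05).

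LTP2 (AT2G38530), a lipid transfer protein of the epidermis, and PETC (AT4G03280), the Rieske protein of the chloroplast electron chain, are the only members of their lists, 25 genes of the outer cell layer and 28 of photosynthesis. Between 15 and 20 DAP 3 of the 25 fell by at least 1 in each fraction. Of the 28 photosynthesis genes 1 did in polysomal and 2 in total RNA. LTP2 had mean polysomal levels of 11.45 ± 0.05, 11.13 ± 0.10, 9.79 ± 0.03 and 9.71 ± 0.21 (SD, n = 3) at 12, 15, 18 and 20 DAP, and PETC had 8.74 ± 0.37, 7.55 ± 0.26, 5.28 ± 0.20 and 5.14 ± 0.10. In total RNA LTP2 had means of 10.53 ± 0.36, 11.24 ± 0.03, 9.77 ± 0.07 and 9.81 ± 0.10, and PETC had 8.02 ± 0.22, 7.02 ± 0.13, 5.0 ± 0.24 and 5.29 ± 0.38. Of 28 photosynthesis genes 27 were lower and 0 higher in polysomal RNA at 18 than at 12 DAP, against 41.6% lower and 31.3% higher over all loci. Yet the list's median polysomal level was already 3.36 at 15 DAP. Polysomal PETC was thus above the list's median at 15 DAP. The 9 lists that hold a member had median differences between 20 and 15 DAP of -0.59 to 0.01 in polysomal and -0.43 to -0.08 in total RNA, against -0.01 and 0.00 over all loci. No member came from the lists of amino acid carriers, seed coat mucilage, oil body proteins, the cell cycle, LEA proteins, endosperm or silique valve markers. Yet 3 of the 11 amino acid carriers were lower by at least 1 at 20 than at 15 DAP in each fraction. A listed gene could thus fall and stay out of the set through another limit of the rule.

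The members with the largest differences carry no symbol. AT1G62080 had polysomal levels of 12.48, 12.46 and 12.53 at 12 DAP, 8.74, 8.96 and 8.91 at 15 DAP, 5.30, 5.12 and 4.0 at 18 DAP, and 3.82, 4.01 and 4.15 at 20 DAP. In total RNA it had 12.28, 11.92 and 12.09 at 12 DAP, 9.74, 9.55 and 9.68 at 15 DAP, 3.22, 3.15 and 3.39 at 18 DAP, and 3.36, 3.06 and 3.30 at 20 DAP. The arrays of 12, 15 and 18 DAP did not overlap in either fraction. AT1G62000 had polysomal levels of 12.14, 12.13 and 12.33 at 12 DAP, 8.11, 8.01 and 7.82 at 15 DAP, 4.03, 4.52 and 3.29 at 18 DAP, and 3.59, 3.98 and 3.01 at 20 DAP. Its total RNA levels were 12.12, 11.90 and 11.81 at 12 DAP, 8.53, 8.93 and 8.92 at 15 DAP, 3.58, 3.64 and 3.73 at 18 DAP, and 2.04, 2.19 and 3.63 at 20 DAP. It showed the same order. At 20 DAP AT1G62080 and AT1G62000 were 29.5-fold and 21.9-fold below 15 DAP on polysomes and 85.6-fold and 72.1-fold below it in total RNA. AT3G62730 and AT2G41390 were 9.46-fold and 18.2-fold lower on polysomes and 14.9-fold and 20.8-fold lower in total RNA. In total RNA 16 members and in polysomal RNA 22 members had a mean under 4 at 20 DAP, near the median of all loci. AT1G62080, AT1G62000, AT3G62730 and AT2G41390 are among them in both fractions. Without detection calls their folds are uncertain. The same holds for SWEET10, KCS18, RNS1, DOX1 and ACP1, whose means at 20 DAP were also under 4 in both fractions.

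The step between 15 and 18 DAP, which is longer than that between 18 and 20 DAP, held most of the difference. By 18 DAP a median of 93.6% of the difference between 15 and 20 DAP was present in polysomal RNA, with members between 60.7% and 138.9%. In total RNA the median was 90.1%, with members between 25.6% and 136.8%. A value above 100% means that the level was higher at 20 than at 18 DAP. The share was at least 80% for 68 members on polysomes, for 51 in total RNA and for 49 in both. Every array of 18 DAP lay below every array of 15 DAP for 78 members in polysomal RNA and for 74 in total RNA, against 16.8% and 11.5% of all loci, but the 15 DAP arrays are those that chose the set and nothing is read from these counts.

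Between 18 and 20 DAP the differences were small. The mean at 20 DAP was below that at 18 DAP for 52 of the 79 members in polysomal RNA and for 58 in total RNA. Every array of 20 DAP lay below every array of 18 DAP for 16 members in polysomal RNA (20.3%, against 5.88% of all loci), for 12 in total RNA (15.2%, against 3.89%) and for 6 in both (7.59%, against 0.291%). The 6 are KCS18, SESA1, NSP5, AT2G07755, AT2G07684 and AT5G02240, named since the count is small, and the 20 DAP arrays are among those that chose the set. The opposite order held for 5 members on polysomes, EXPA15, PLP4, AT3G17130, GPT2 and SVB (6.33%, against 5.71% of all loci), and for MIPS1 in total RNA (1.27%, against 5.9% of all loci). The median difference between 20 and 18 DAP was -0.13 in polysomal and -0.15 in total RNA. The level measured at 20 DAP was thus largely reached by 18 DAP. In total RNA 16 members and in polysomal RNA 22 had a mean under 4 at 20 DAP, near the median of all loci. For these a further fall after 18 DAP may be too low to measure, so the end of the fall is not dated.

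Slow members were fewer. In total RNA 8 members had under 60% of their difference by 18 DAP, and in polysomal RNA 0 had. These 8 are AT1G34910, AT1G05450, AT1G63570, AT5G17900, KNAT3 and the chromosome 2 loci AT2G07664, AT2G07684 and AT2G07794. AT1G05450 had 92.1% of its difference by 18 DAP on polysomes and 28.9% in total RNA, where its 18 DAP arrays spread over 5.80, 5.28 and 7.02.

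**Figure D3:**
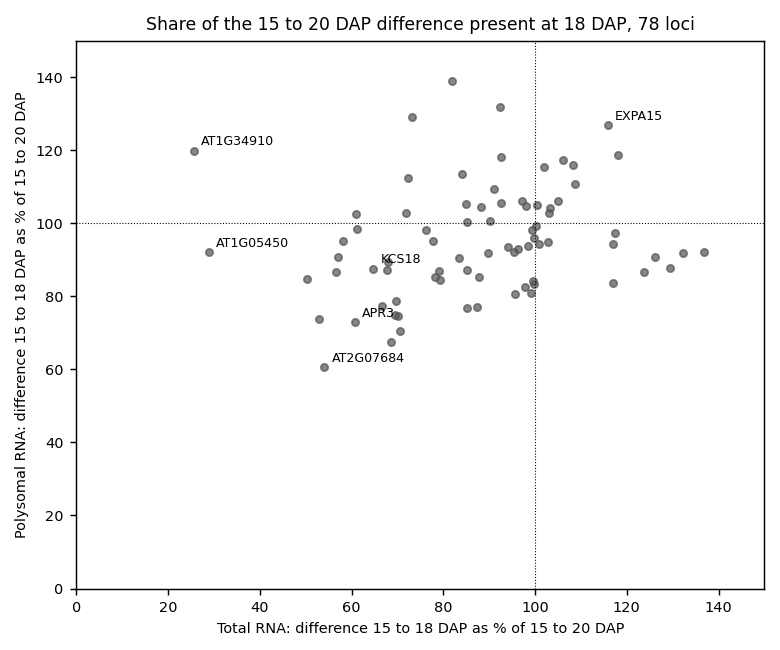
For each of 78 of the 79 loci, the difference between 15 and 18 DAP as a percentage of the difference between 15 and 20 DAP, polysomal RNA on the vertical and total RNA on the horizontal axis, with dotted lines at 100%. Most points lie above 60% on both axes, and AT1G34910 and AT1G05450 stand at the left, at 25.6% and 28.9% in total RNA.

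Before 15 DAP the members did not share a course. In total RNA 28 of the 79 were lower at 15 than at 12 DAP by at least 1 (35.4%, against 23.9% of all loci), and the rule kept out any that rose by 1 or more. In polysomal RNA, where the rule set no limit between 12 and 15 DAP, 19 were lower by at least 1 (24.1%, against 38.5% of all loci), 20 were higher by at least 1 (25.3%, against 28.8%) and 40 lay between. The median change was 0.04 in polysomal RNA, while the median of all loci was -0.51. In both fractions 16 members were lower at 15 than at 12 DAP by at least 1. Among them are OMT1, AT1G62000, ACP1, AT1G62080, MT1A and RNS1, described above, with differences between -4.51 and -2.07. APR3 and DBP1 were higher on polysomes at 15 than at 12 DAP, by 2.48 each, with 0.99 and 0.68 in total RNA.

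Polysomal RNA at 18 against 12 DAP compares groups that the rule did not use. Of the 79 loci 57 were lower (72.2%, against 41.6% of all loci) and 2 higher (2.53%, against 31.3%), by limma on those 6 arrays with Benjamini-Hochberg adjustment over all loci and a threshold of 0.05. The median difference was -1.66, against -0.51 over all loci. A locus that had not risen in total RNA before 15 DAP and was lower afterwards had little room to be higher at 18 than at 12 DAP, so the count is partly set by the rule. Of the 28 members that were already lower at 15 DAP in total RNA 23 were called lower, with a median difference of -3.29. Of the other 51 members 34 were called lower, with a median of -1.25. Over all loci 57.1% of the calls were lower as deposited, against 43.5% under quantile normalization, 40.7% under median centring and 56.3% under cyclic loess, which put the median of all loci within 0.1 of 0. In the same comparison all 9 listed endosperm markers and all 6 silique valve markers were lower, with median differences of -1.69 and -2.59, and their part in the result was not tested. The other scalings gave 61 members lower under quantile normalization, 43 under median centring and 74 under cyclic loess.

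The 6 largest called differences were those of AT1G62000 (-8.25 ± 0.36), AT1G62080 (-7.69 ± 0.38), ACP1, OMT1, AT3G62730 (-6.22 ± 0.34) and RNS1. All 6 stayed called under the 11 alternatives run for single loci. The 2 called higher were APR3 (AT4G21990), a reductase of sulfate assimilation, and DBP1 (AT2G25620), a DNA-binding phosphatase, and both turned lower without a call under cyclic loess scaling. APR3 had polysomal levels of 4.94, 5.94 and 3.52 at 12 DAP, 7.21, 7.49 and 7.15 at 15 DAP, 6.26, 6.22 and 6.47 at 18 DAP, and 5.98, 5.81 and 6.09 at 20 DAP. The third array of 12 DAP, at 3.52, was the lowest, and without it the difference was 0.88 with an adjusted p of 0.0555, against 1.51 ± 0.54 and 0.0305 with all arrays. Leaving out the first array of 12 DAP (adjusted p = 0.0647) or any array of 18 DAP (adjusted p = 0.0636 to 0.0846) also ended that call. DBP1 had 4.49, 4.70 and 4.55 at 12 DAP, 7.23, 7.03 and 6.92 at 15 DAP, 5.68, 6.16 and 5.72 at 18 DAP, and 5.29, 5.30 and 5.46 at 20 DAP on polysomes, a difference of 1.27 ± 0.28 between 18 and 12 DAP (limma adjusted p = 0.00376).

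**Figure D4:**
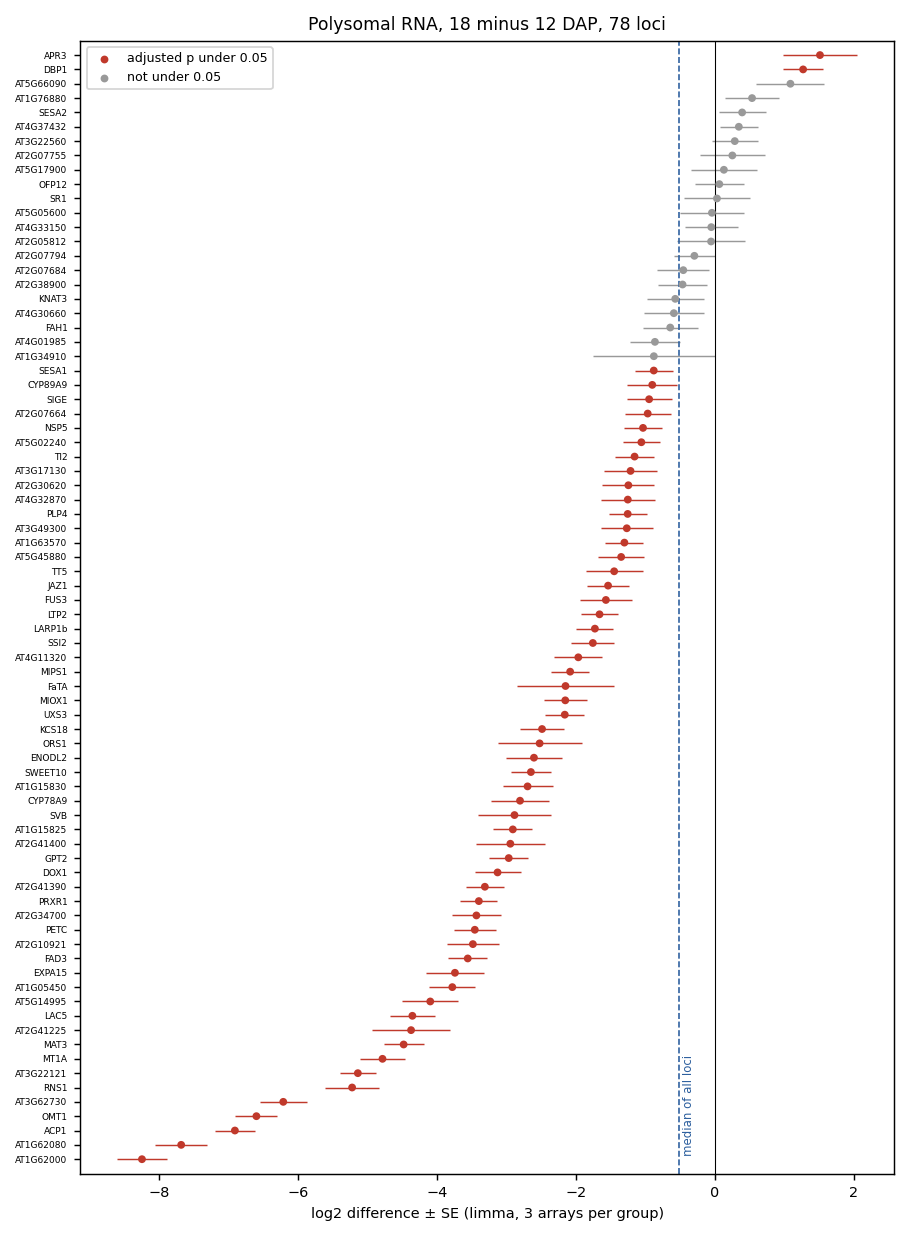
Difference in polysomal RNA between 18 and 12 DAP (log2, point) with its SE (line) for 78 of the 79 loci, sorted, red where the limma adjusted p is under 0.05, with the median of all loci, -0.51, as a dashed line. The points run between -8.25 and 1.51, and 56 of the 58 red points lie left of 0, while the red points of APR3 and DBP1 right of it turned lower without a call under cyclic loess scaling.

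Polysomal against total RNA at 18 DAP compares arrays that the rule did not use. Of the 79 loci 18 were lower on polysomes (22.8%, against 11.3% of all loci) and 6 higher (7.59%, against 13.5%), by limma on the 18 later arrays. Of all calls over all loci 45.6% were lower as deposited, against 27.4% under median centring and 60.3% under cyclic loess. The median difference was -0.07, against 0.04 over all loci, and 46 members lay within 0.5 of 0. Another 13 were lower by 1 or more. The rule set its level minimum in total RNA alone, so it let in loci that were low on polysomes and kept out the reverse, and these counts are partly set by it. Of the 13 members with a polysomal mean under 6 at 15 DAP 6 were called lower on polysomes at 18 DAP, and 6 were lower by 1 or more. Of all 6416 loci with a total mean of at least 6 at 15 DAP 433 were called lower. Of the 6105 among them that also reach 6 on polysomes only 251 were. Such calls were thus common among the remaining loci, and no excess is read from the 6 of 13. Of the 66 members with a mean of at least 6 in both fractions, a condition added after the values were seen, 12 were called lower (18.2%) and 5 higher (7.58%). Of all 6105 loci that meet that condition 251 were called lower (4.11%) and 1230 higher. The median difference was 0.06 over those 66 members, against 0.23 over those loci.

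The largest difference was that of AT1G34910, which passed the level minimum through total RNA, with polysomal levels of 1.35, 1.80 and 5.26 at 12 DAP, 3.49, 3.05 and 3.92 at 15 DAP, 2.38, 1.82 and 1.57 at 18 DAP, and 2.43, 2.97 and 1.15 at 20 DAP. Its levels in total RNA were 9.07, 10.36 and 10.19 at 12 DAP, 9.01, 8.87 and 8.52 at 15 DAP, 8.47, 7.84 and 9.27 at 18 DAP, and 6.96, 8.09 and 8.11 at 20 DAP. Its polysomal arrays were near the bottom of the scale at most stages and its total RNA arrays were high at all of them. At 18 DAP the difference was -6.60 ± 0.44 (limma adjusted p = 9.49e-08), and no fold is given because the table holds no detection calls for such low levels. AT1G63570 (-3.14 ± 0.70, limma adjusted p = 0.00522) and AT1G05450 (-2.49 ± 0.37, limma adjusted p = 0.000375) followed among loci outside chromosome 2. With polysomal means of 4.57 and 4.72 at 15 DAP, they too passed the level minimum of 6 through total RNA alone. Their lower polysomal level is thus partly set by the rule. The long non-coding RNA AT3G22121 was lower as well (-1.63 ± 0.26, limma adjusted p = 0.000766).

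Members of chromosome 2 with names that begin AT2G07 were also lower on polysomes. They are the methionine transfer RNAs AT2G07755 and AT2G07794, the pseudogene AT2G07664 and the protein-coding AT2G07684. AT2G07755 had polysomal levels of 6.81, 5.47 and 4.88 at 12 DAP, 8.12, 8.04 and 7.91 at 15 DAP, 6.18, 5.94 and 5.80 at 18 DAP, and 4.87, 4.87 and 5.21 at 20 DAP. In total RNA it had 10.18, 11.42 and 11.64 at 12 DAP, 9.85, 9.85 and 9.66 at 15 DAP, 8.39, 8.93 and 8.83 at 18 DAP, and 8.13, 8.29 and 8.26 at 20 DAP. On every array AT2G07755 had the same value as the mitochondrial locus ATMG01340, AT2G07794 the same as ATMG00460 and AT2G07664 the same as ATMG01040, so these 3 members cannot be told apart from mitochondrial transcripts. At 18 DAP they were lower on polysomes, with differences of -2.74 ± 0.17, -1.91 ± 0.37 and -4.03 ± 0.33, and so was AT2G07684, at -1.83 ± 0.16 (limma adjusted p between 3.48e-08 and 0.0022). The 92 mitochondrial loci had a median of -0.92 in that comparison. Their median between 20 and 15 DAP was 0.12 in polysomal and -0.79 in total RNA. AT2G07664, with a polysomal mean of 5.30 at 15 DAP, also passed the level minimum of 6 through total RNA alone.

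Of the 6 members that were higher on polysomes at 18 DAP, AT1G62080 had the largest difference, 1.55 ± 0.25 (limma adjusted p = 0.000649), with polysomal arrays at 5.30, 5.12 and 4.0 and total RNA arrays at 3.22, 3.15 and 3.39. It alone of the 6 stayed called under all 11 alternatives run for it. SWEET10 was higher by 0.71 ± 0.19 (limma adjusted p = 0.0159), and that call was lost without the first polysomal array of 18 DAP (adjusted p = 0.0731), the second (adjusted p = 0.0555) or the third total RNA array (adjusted p = 0.068). The other members called higher were AT5G17900 (1.19 ± 0.34), SR1 (0.89 ± 0.24), AT5G05600 (0.62 ± 0.19) and MIOX1 (0.50 ± 0.17), and each lost its call under quantile and cyclic loess scaling and without the third total RNA array of 18 DAP, where adjusted p was 0.0714, 0.0771, 0.124 and 0.226 in that order.

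**Figure D5:**
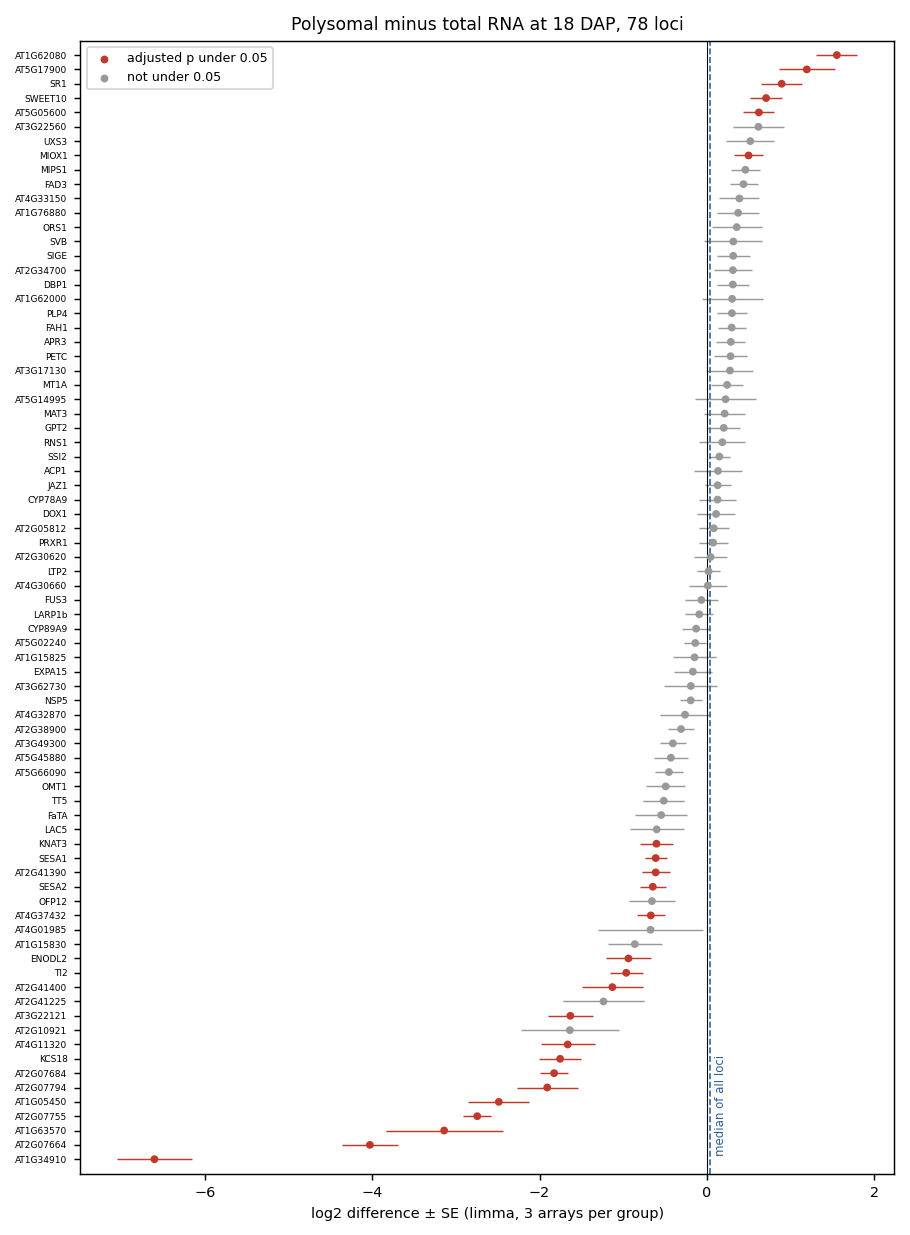
Difference between polysomal and total RNA at 18 DAP (log2, point) with its SE (line) for 78 of the 79 loci, sorted, red where the limma adjusted p is under 0.05, with the median of all loci, 0.04, as a dashed line. Most points lie near 0, 18 red points lie left of it down to -6.60 for AT1G34910, and 6 lie right of it up to 1.55 for AT1G62080.

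The size of the difference between 20 and 15 DAP was alike in both fractions for most members. The sizes differed by under 0.5 for 60 members and by over 1 for 8. The rule asked for a difference of -1 or below in each fraction, so this likeness is partly set by it. For 21 members both differences were under 1.5 in size, which by itself puts them within 0.5 of each other. Nothing is read from these counts. In 3 of the 8 the polysomal difference was the larger: KCS18, AT2G07755 and AT4G01985. In the other 5 the total RNA difference was the larger: AT1G62000 (by 1.72), AT1G62080 (by 1.54), RNS1 (by 1.48), AT5G17900 (by 1.37) and AT5G14995 (by 1.26). For AT1G62080 and AT1G62000 the polysomal level at 15 DAP was below the total level and that at 20 DAP above it. Their means at 20 DAP were under 4 in both fractions, where no detection calls are given.

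Some members lie side by side in the order of the measured loci, so unmeasured loci may lie between them. There were 6 pairs of adjacent loci, which hold 12 members: AT1G15825 with AT1G15830, AT2G07664 with AT2G07684, AT2G41225 with ORS1 (AT2G41230), AT2G41390 with AT2G41400, SESA1 with SESA2, and AT5G66090 with LARP1b (AT5G66100). Whether probes of adjacent loci share sequence was not analysed here.

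The limits of the rule cut through a continuous range. Just inside the limit of -1 lay OFP12 (-1.01 on polysomes), FaTA (-1.02 in total RNA) and AT4G37432 (-1.03 on polysomes). Just outside lay AT4G01895 (-0.99 in total RNA), AT5G38050 (-0.99 on polysomes) and ATHSRP54A (-0.99 in total RNA). At the level limit SIGE had 6.06, SVB 6.09 and AT2G41400 6.10 in total RNA at 15 DAP inside it, and OPT5 had 5.97, AT1G25530 5.96 and PATL1 5.94 outside. At the limit on the earlier rise in total RNA APR3 had 0.99, AT5G05600 and KNAT3 0.94 inside it, and AT1G02710 1.01, AT1G76878 1.05 and ATS3 1.07 outside. Another 107 loci met all other conditions but had risen by at least 1 before 15 DAP, among them the phosphatase PS2 and the outer layer gene PDF1, with total RNA means of 3.96 and 7.63 at 12 DAP and of 7.63 and 9.14 at 15 DAP. Another 163 loci were kept out by the level minimum alone. With the same limits on the level and on the earlier rise, 116 loci were lower by at least 1 at 20 than at 15 DAP in total RNA only. In polysomal RNA only there were 22.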

How the data were processed

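Total and polysomal RNA of Arabidopsis Col-0 seeds was hybridised to 24 one-colour arrays. The authors deposited log2 levels, 1 probe set per locus, made with RMA per the submitters' processing notes. RMA corrects background, normalizes arrays to each other and summarises probes. Its version, the array design, the genome build and the arrays normalized together are not given in the sources used here, and the table holds no detection calls. The precision is limited by 3 arrays per group.

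Group means gave the set. Polysomal RNA at 18 against 12 DAP was fitted to those 6 arrays alone, because the 12 DAP arrays spread more, and polysomal against total RNA at 18 DAP to the 18 later arrays, in R 4.3.3 with limma 3.58.1. P-values were adjusted over all 27827 loci by the Benjamini-Hochberg method, the threshold was 0.05, and dim loci were kept. The steps were tested on simulated data. SEs of differences between 20 and 15 DAP come from the fit to the later arrays. Plants were grown in blocks, per the labels, which do not say that array numbers name those blocks, so the main fits hold no block, and p-values measure only the spread between these arrays, which may be technical.

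Symbols, classes and the order of loci by start position came from a RefSeq table of assembly TAIR10.1, in which all 79 loci were found. Alternatives were 3 other scalings, other arrays in the fit, a replicate block, a filter on dim loci, other limits of the rule, 1 of them (a level minimum in both fractions) chosen after seeing the data, and leaving out each array. Named by rule are the 20 members with a symbol and the largest mean difference between 20 and 15 DAP, members of the gene lists, the 3 loci either side of each limit, and the 6 largest calls each way in each test, with SWEET10, RNS1, PS2 and PDF1, of which 1 member is not reported here or drawn in the figures. The members, lists and tests were chosen with earlier results of these data known. Promoter and protein sequences were not analysed here.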

Additional observations from a re-analysis of the deposited data

How the results depend on the processing

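The number of loci that meet the rule was 79, and 72 to 85 when 1 array was left out. It was 156 under cyclic loess scaling, 242 with no level minimum, 26 with a level minimum of 8 and 186 without the condition on 15 against 12 DAP. For polysomal RNA at 18 against 12 DAP, 49 to 59 members were lower and 1 to 3 higher when 1 array was left out. Members higher were 0 under quantile normalization, 6 under median centring and 0 under cyclic loess. APR3 turned to -0.27 (adjusted p = 0.757) and DBP1 to -0.31 (adjusted p = 0.481) under cyclic loess, and both lost the call under quantile normalization. For polysomal against total RNA at 18 DAP, 14 to 18 members were lower and 2 to 6 higher when 1 array was left out. The fit to all 24 arrays gave 11 lower and 1 higher. Quantile normalization gave 22 lower and 2 higher, cyclic loess 26 and 2, and median centring 14 and 8, and 3 were higher with the 6 arrays of 18 DAP alone. A level minimum in both fractions, chosen after seeing the data, left 66 members, 12 of them lower and 5 higher. Same-numbered replicates correlated at -0.01 to 0.01 in their deviations, so arrays were not taken as paired by number. With the replicate block 56 members were lower and 3 higher at 18 against 12 DAP, and 20 lower and 6 higher on polysomes at 18 DAP.

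Of 55 single results tested under 11 alternatives each, 40 kept their call under all of them. Of the 605 values 538 kept direction and call, 65 lost the call and 2 reversed. The causes were not tested. TT5 at 18 against 12 DAP lost its call under median centring (adjusted p = 0.0695). SESA1 in that comparison (-0.88, adjusted p = 0.0169) lost it under median centring and without any 1 of the polysomal arrays of 18 DAP, with adjusted p up to 0.249. Over all loci the 11570 lower and 8700 higher calls at 18 against 12 DAP became 2668 and 3468 under quantile normalization, 3657 and 2840 under cyclic loess, and 7229 lower under median centring and 5816 lower without the dimmest 25% of loci. On polysomes at 18 DAP the 3140 lower and 3747 higher calls became 1498 and 753 with all 24 arrays in the fit, while higher calls were 1967 under quantile normalization, 1557 under cyclic loess, 6246 under median centring and 2023 with the 18 DAP arrays alone, and lower calls were 1762 under quantile normalization. Without the third total RNA array of 18 DAP these counts were 1724 lower and 1725 higher. The deposited levels carry no detection calls, so low levels at 18 and 20 DAP cannot be set against background.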
